A study of Mus musculus with 6 samples.

Results

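The immediate early genes that T-cell receptor (TCR) signaling switches on were examined in the thymus of RUNX2/MYC mice. The group holds 10 genes, chosen by name: the nuclear receptor genes Nr4a1 and Nr4a3, the zinc finger genes Egr1, Egr2 and Egr3, the AP-1 genes Fos, Jun and Junb, the surface receptor gene Cd69 and the small nuclear protein gene Ier2. All 10 were measured, among 19938 genes with a value in the series, and each was paired with a single probe set, so that taking the brightest probe set of a gene left no choice. RNA came from whole thymus of 10-day-old mice on Affymetrix MoGene-1 arrays, 3 of mice with the genotype CD2-Myc/CD2-Runx2 on a C57BL6/CBA background (RUNX2/MYC) and 3 of C57/CBA mice without the transgenes (WT), each labelled as a biological replicate of its own. CD2 control elements drive both transgenes in the T lineage, controls were matched by litter per the methods, and mice with a single transgene were not analysed here. At this age RUNX2/MYC thymus is premalignant, and the pathway analysis of the study raised the question of whether its thymocytes resemble cells with an engaged TCR.

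Immediate early genes are transcribed within minutes of a signal, from factors that are already present in the cell. Below the TCR, RAS and ERK activate the ternary complex factors that sit with SRF on serum response elements, calcium and calcineurin activate NFAT and MEF2, and kinases of several routes phosphorylate CREB on cyclic AMP response elements (CRE). In the thymus NR4A and EGR proteins are best known as readouts of TCR signal strength during positive and negative selection, and CD69 marks thymocytes that have received such a signal. Many of these genes also answer to growth factors and to handling of tissue, in stroma as well as in T cells.

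The upstream sequences of 4 members are shown because they hold letters of the elements that CREB and SRF are known to bind. The table of RefSeq promoters (GRCm38.p6) held 6 of the 10 members, namely Nr4a1, Nr4a3, Egr2, Fos, Jun and Junb. Capitals mark the CRE core TGACG, read on either strand, and the CArG box bound by SRF. Positions count back from the base before the transcription start. All 4 stretches are on the plus strand and run 5′ to 3′, and they lie at chr15:101266596-101266845 for Nr4a1 and chr4:48045055-48045304 for Nr4a3 (positions -250 to -1), and at chr10:67537719-67537868 for Egr2 and chr12:85473740-85473889 for Fos (positions -150 to -1).
Nr4a1: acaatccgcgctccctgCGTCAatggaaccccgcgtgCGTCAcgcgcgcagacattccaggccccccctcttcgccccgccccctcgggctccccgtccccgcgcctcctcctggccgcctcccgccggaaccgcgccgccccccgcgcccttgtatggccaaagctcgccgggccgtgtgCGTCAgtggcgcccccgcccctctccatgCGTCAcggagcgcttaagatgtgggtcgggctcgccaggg
Nr4a3: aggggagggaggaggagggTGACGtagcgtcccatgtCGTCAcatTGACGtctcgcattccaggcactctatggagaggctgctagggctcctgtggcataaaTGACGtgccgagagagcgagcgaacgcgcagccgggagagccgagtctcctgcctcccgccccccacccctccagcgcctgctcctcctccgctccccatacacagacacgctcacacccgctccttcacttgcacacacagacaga
Egr2: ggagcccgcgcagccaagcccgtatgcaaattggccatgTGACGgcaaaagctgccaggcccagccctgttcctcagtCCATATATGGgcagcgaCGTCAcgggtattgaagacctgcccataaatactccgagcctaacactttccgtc
Fos: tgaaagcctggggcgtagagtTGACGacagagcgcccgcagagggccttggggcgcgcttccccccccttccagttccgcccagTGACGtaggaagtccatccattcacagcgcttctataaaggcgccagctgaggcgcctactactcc
Within the 250 bases before the start, the CRE core was found in 5 of the 6 members (every one but Jun) and in 19.8% of the 27025 genes of the table. It occurred 4 times each in the stretches of Nr4a1 and Nr4a3. The CArG box was found in Egr2 alone of the 6, from -72 to -63 in the stretch shown, and in 1.62% of all genes. The RUNX core TGTGGT was found in none of the 6 and in 15.9% of all genes, and the E-box CACGTG, a site read by MYC, in Egr2 (at another of its 5 annotated starts) and in 6.86% of all genes. The full CRE TGACGTCA, which contains the core, and the AP-1 site TGANTCA were in none of the 6 (1.77% and 7.82% of all genes), and the EGR site GCGNGGGCG was in Nr4a1 (5.33%). These are matches of letters in a short window.

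Array-wide values that touch the results are few. The probe set of Runx2, named through its number in the study's list of changed genes, had log2 signals of 11.73 to 11.96 in RUNX2/MYC and of 7.93 to 7.94 in WT. No array repeated another, and 5 to 18 of 35556 values were identical between any pair. The median absolute difference of RUNX2/MYC replicate 1 was 0.147 to 0.169 from the WT arrays. From RUNX2/MYC replicates 2 and 3 it was larger, at 0.213 and 0.186. WT replicate 3 lay nearest to RUNX2/MYC replicate 3 (0.156), and stood at 0.216 and 0.172 from WT replicates 1 and 2. In a moderated linear model (limma) on the log2 signals of all probe sets, a probe set is called at a Benjamini-Hochberg adjusted p under 0.05, and 1.68% of them were called higher and 0.127% lower in RUNX2/MYC. RUNX2/MYC replicate 2 stood out by genes of fat, with a mean log2 signal of 8.40 over 9 adipocyte markers against 6.81 to 7.25 on the other 5 arrays.

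No immediate early gene was called higher or lower in RUNX2/MYC thymus. Of the 10 members 0 passed the adjusted threshold, and 0 had an unadjusted p under 0.05 in limma, a level that 12.0% of all probe sets reached as higher and 9.27% as lower. With the methods' test and q values 0 members passed as well (3.41% of probe sets higher and 0.695% lower), and 0 with its p-values adjusted after Benjamini and Hochberg (0.456% and 0.0928%). The log2 fold changes (RUNX2/MYC minus WT) ran from -0.12 for Cd69 to 0.15 for Nr4a3, with a median of 0.062 against -0.065 over all genes. Read as folds, the 95% intervals of the single members reached no lower than 0.668 (Cd69) and no higher than 1.39 (Nr4a3). For every one of the 10 genes the 3 RUNX2/MYC arrays overlapped with the 3 WT arrays, where 24.4% of all probe sets had no overlap in either direction. With 10 genes, a count of 0 at a background of 1.68% does not set the members apart from other genes.

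**Figure D1:**
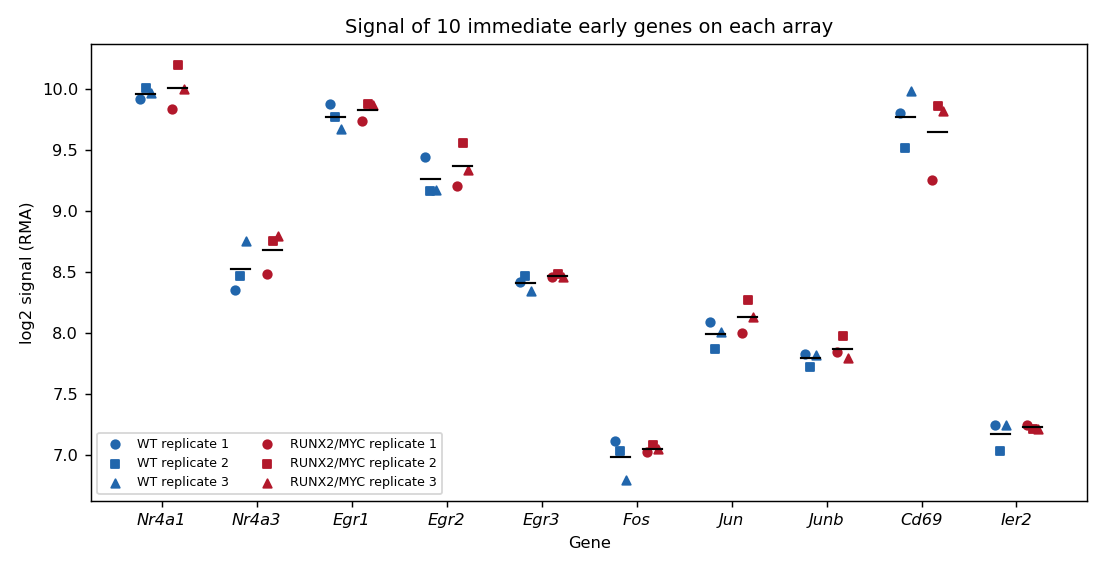
Log2 signal of each of the 10 immediate early genes on each array, WT in blue and RUNX2/MYC in red, with the mean of 3 arrays as a black bar. The groups overlap for every gene, and the widest spread is that of Cd69, from 9.26 to 9.98.

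The NR4A genes encode orphan nuclear receptors whose transcription follows TCR signal strength. Nr4a1 (NUR77) had log2 signals of 9.83, 10.20 and 10.00 on RUNX2/MYC replicates 1 to 3 and of 9.91, 10.01 and 9.96 on WT replicates 1 to 3. The RUNX2/MYC arrays lay on both sides of the WT arrays, which differed among themselves by only 0.096. The log2 fold change was 0.049 (SE 0.11, 95% interval -0.22 to 0.31, adjusted p = 0.792 from limma, exact permutation p = 0.8), and it turned to -0.044 without RUNX2/MYC replicate 2.
Nr4a3 (NOR1) had log2 signals of 8.48, 8.75 and 8.79 in RUNX2/MYC and of 8.35, 8.47 and 8.76 in WT. WT replicate 3 lay as high as the upper RUNX2/MYC arrays, and RUNX2/MYC replicate 1 as low as WT replicate 2. Its log2 fold change of 0.15 (SE 0.14, 95% interval -0.18 to 0.48, adjusted p = 0.509) was the largest of the 10. Nr4a3 was called higher in settings that drop or weigh down RUNX2/MYC replicate 1 and WT replicate 3: with both arrays left out it was 0.36 (adjusted p = 0.036 from limma, with 14.2% of probe sets called higher and 20.2% lower), and with estimated array weights (0.30 and 0.335 for these arrays) 0.29 (adjusted p = 0.0133, with 25.8% called higher and 34.1% lower), while leaving out a single array gave 0.065 to 0.27 with no call. The adjusted p of Nr4a3 ran from 0.0133 to 0.85 over its 18 alternatives.

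The EGR genes encode zinc finger transcription factors that ERK induces through SRF, and EGR2 and EGR3 act in selection and in restraint of the TCR response. Egr1 had log2 signals of 9.74, 9.88 and 9.87 in RUNX2/MYC and of 9.88, 9.77 and 9.67 in WT, with the highest and the lowest value both in WT. Its log2 fold change was 0.051 (SE 0.095, adjusted p = 0.744), and re-applied quantile normalization and cyclic loess turned its sign.
Egr2, which holds the CArG box shown above, had log2 signals of 9.20, 9.56 and 9.34 in RUNX2/MYC and of 9.44, 9.17 and 9.17 in WT. RUNX2/MYC replicate 2 and WT replicate 1 were the high arrays, and the other 4 lay between 9.17 and 9.34. The log2 fold change was 0.11 (SE 0.13, 95% interval -0.20 to 0.41, adjusted p = 0.616 from limma), and without RUNX2/MYC replicate 2 it was 0.0097. Quantile normalization and cyclic loess turned it to -0.0073 and -0.029.
Egr3 was the flattest of the members, with a range of 0.14 over the 6 arrays (8.46 to 8.48 in RUNX2/MYC and 8.35 to 8.47 in WT) and a log2 fold change of 0.055 (95% interval -0.14 to 0.25, adjusted p = 0.675).

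FOS, JUN and JUNB are subunits of AP-1, in which FOS pairs with a JUN protein. Jun had log2 signals of 8.0, 8.27 and 8.13 in RUNX2/MYC and of 8.09, 7.87 and 8.01 in WT. RUNX2/MYC replicates 2 and 3 lay above all WT arrays, and RUNX2/MYC replicate 1 lay among them. The log2 fold change was 0.14 (SE 0.11, 95% interval -0.11 to 0.40, adjusted p = 0.428 from limma, exact permutation p = 0.3, where the design allows no p below 0.1).
With array weights Jun was 0.25 (adjusted p = 0.0204), and it was not called in the other 17 alternatives, without RUNX2/MYC replicate 2 at 0.074. Junb, which can limit the activity of JUN, had log2 signals of 7.80 to 7.97 in RUNX2/MYC and of 7.72 to 7.83 in WT, with a log2 fold change of 0.082 (95% interval -0.13 to 0.29, adjusted p = 0.577). Fos had log2 signals of 7.02 to 7.08 in RUNX2/MYC and of 6.795 to 7.11 in WT, with a log2 fold change of 0.07 (95% interval -0.18 to 0.32, adjusted p = 0.688). The low end of Fos was WT replicate 3 alone, and without that array the value was -0.023.

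CD69 holds cells in the tissue by drawing the egress receptor S1PR1 off the surface. Cd69 had log2 signals of 9.26, 9.86 and 9.82 in RUNX2/MYC and of 9.80, 9.52 and 9.98 in WT. It was the only member with a negative log2 fold change, -0.12 (SE 0.195, 95% interval -0.58 to 0.34, adjusted p = 0.704 from limma), and the only one whose range over the arrays passed 0.5 (0.72). RUNX2/MYC replicate 1 was far below the others, and without it the difference was 0.074 with the opposite sign.
On that same array the mean log2 signal of 14 thymocyte markers was the lowest of the series (11.25, against 11.42 to 11.62 on the other 5), and its part in the Cd69 value was not tested. Ier2 encodes a small nuclear protein induced by growth factors and by TCR signals. It had log2 signals of 7.22 to 7.25 in RUNX2/MYC and of 7.04 to 7.25 in WT, with a log2 fold change of 0.052 (95% interval -0.17 to 0.27, adjusted p = 0.734) that turned to -0.018 without WT replicate 2.

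**Figure D2:**
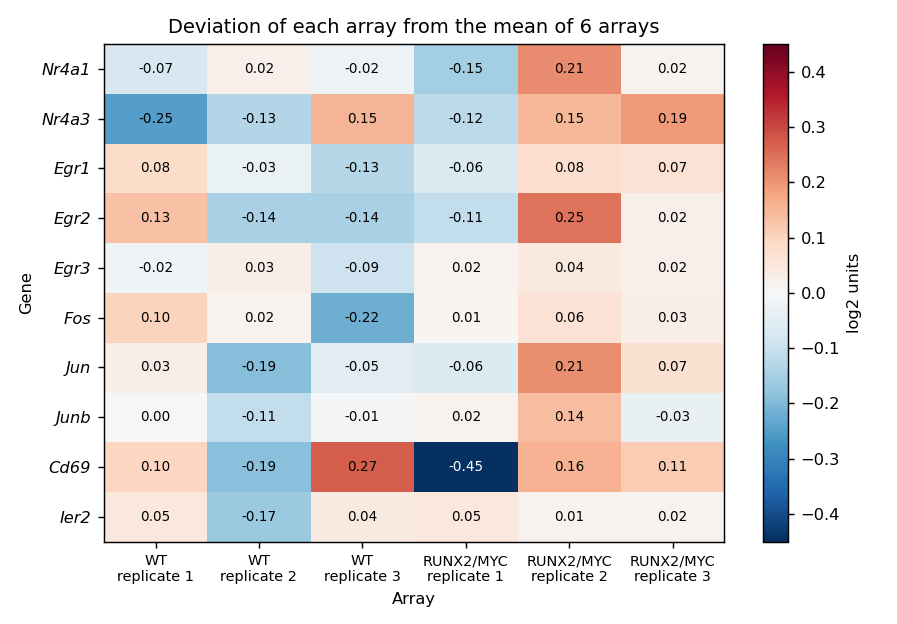
Deviation of the log2 signal of each immediate early gene (rows) on each array (columns) from its mean over the 6 arrays, red above and blue below. RUNX2/MYC replicate 2 is above the mean for 10 of 10 genes, and the deepest single value is that of Cd69 on RUNX2/MYC replicate 1.

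RUNX2/MYC replicate 2 was the highest array for 5 of 10 members (Nr4a1, Egr2, Egr3, Jun and Junb) and lay above the 6-array mean for all 10, where it was highest for 23.7% and above the mean for 48.0% of all genes. It was also the lowest array for 26.4% of all genes. Its array median was the lowest of the series (7.31) and its 75th percentile the highest (9.04). All members but Fos and Ier2 lay above the median signal, and the part of this array-wide spread in their values was not tested. WT replicate 2 was the lowest array for 4 members (Egr2, Jun, Junb and Ier2) and WT replicate 3 for 3 (Egr1, Egr3 and Fos). Averaged over the 10 genes, the log2 signals were 8.51, 8.73 and 8.65 on RUNX2/MYC replicates 1 to 3 and 8.61, 8.51 and 8.58 on WT replicates 1 to 3, so the array averages of the groups overlapped.
RUNX2/MYC replicate 2 is also the array on which the genes of fat stood out, with 8 of the 9 adipocyte markers at their highest there, and the part of that tissue in the member values was not tested. Without this array the median log2 fold change of the members was 0.039, and over the omission of each single array it ran from 0.039 to 0.095. The median range over the 6 arrays was 0.34 for the members and 0.48 for all probe sets.

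Of the 10 members 9 had a log2 fold change above 0, where 40.2% of all genes did. With cyclic loess 5 members and 45.9% of all genes were above 0, and with re-applied quantile normalization 6 members and 42.8%. Against the median of all genes, the median of the members was 0.047 higher with cyclic loess and 0.077 higher with quantile normalization. Centring the arrays on the 75th percentile moves every gene by the same amount, -0.0966, so that 3 members and 29.1% of all genes were above 0 while the members kept their distance of 0.128 from the median of all genes.

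Of 11 further genes of the NR4A, EGR, AP-1 and IER families and their regulators, 0 were called in either direction, and 0 reached an unadjusted p of 0.05. The median of their log2 fold changes was 0.077. The third NR4A gene, Nr4a2, had a value of 0.11 (95% interval -0.13 to 0.35) and Egr4 of -0.12 (-0.42 to 0.18).
Among the FOS genes Fosb had -0.17, Fosl1 -0.19 and Fosl2 -0.07, while Jund had 0.12. The IER genes stood at 0.12 for Ier3, 0.077 for Ier5 and -0.14 for Ier5l. Of the EGR corepressor genes, Nab1 had 0.15 with a wide interval (-0.24 to 0.55). Nab2 had 0.11 (-0.081 to 0.31, adjusted p = 0.416) and was the only relative without overlap, at 9.45 to 9.48 in RUNX2/MYC and 9.31 to 9.43 in WT.

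**Figure D3:**
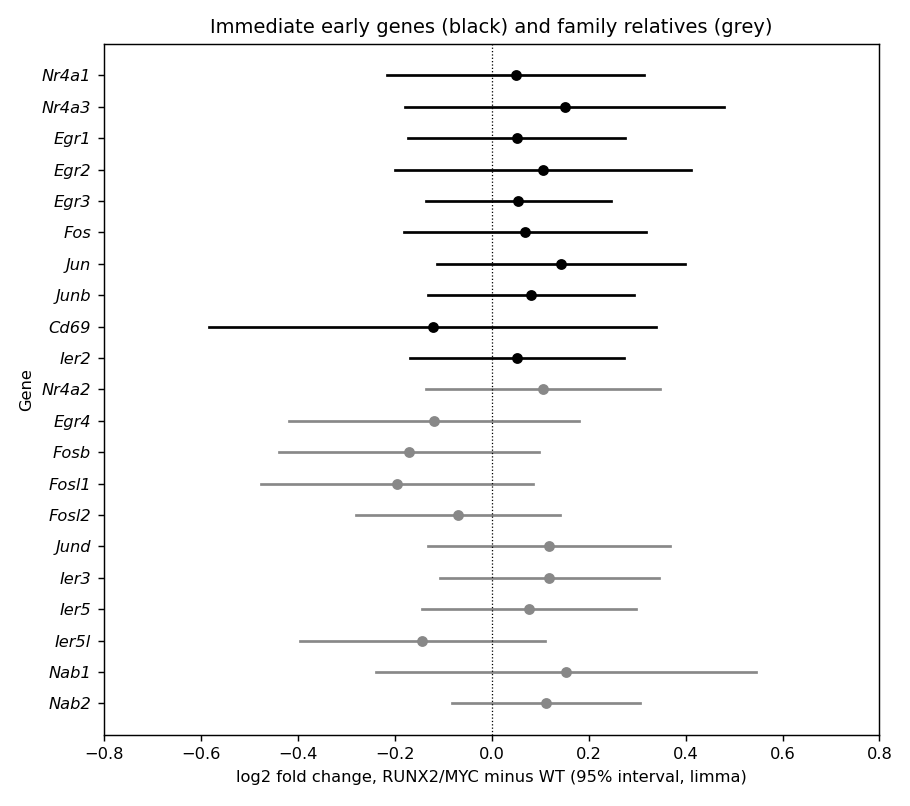
Log2 fold change, RUNX2/MYC minus WT, of the 10 immediate early genes (black) and 11 family relatives (grey). Points are estimates and lines are 95% intervals from limma, and every line crosses 0.

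The routes that lead from the TCR to these genes held few calls. Of 12 measured genes of the RAS and ERK route 0 were called, with a median log2 fold change of 0.074. Srf itself, which binds the CArG box, had the largest value at 0.25 (95% interval 0.046 to 0.45, adjusted p = 0.181), with 9.64 to 9.73 in RUNX2/MYC and 9.39 to 9.54 in WT. The groups did not overlap for Srf. Map2k2, an activator of ERK, had 0.21 (adjusted p = 0.235).
Of 11 phosphatases and inhibitors that ERK and related kinases induce against themselves, 0 were called, and the largest values were negative, -0.49 for Dusp10 (adjusted p = 0.124) and -0.34 for Dusp6 (adjusted p = 0.325). Above 0 were 4 of the 11, the largest Spry1 at 0.29 without overlap (adjusted p = 0.141 from limma). In other settings 1 was called lower with quantile normalization or cyclic loess, and 1 higher and 1 lower with the methods' q values. Of 13 genes of calcium entry, calcineurin and NFAT 1 was called. It was Ppp3cc, a catalytic subunit of calcineurin, which rose from 8.31 ± 0.20 (SD, n = 3) in WT to 9.005 ± 0.11 (SD, n = 3) in RUNX2/MYC, by 0.70 on the log2 scale (SE 0.12, adjusted p = 0.047). The call of Ppp3cc ended without RUNX2/MYC replicate 2 or 3 or WT replicate 1 or 2, and with arrays centred on the 75th percentile or under the methods' test. Each of those omissions left 3 or 4 of 35556 probe sets called in the whole series, so that loss is not particular to Ppp3cc.
Of 12 genes of the protein kinase C and NF-kappaB route 0 were called, with Ikbkb at 0.38 (adjusted p = 0.167) and Nfkbib, an inhibitor of NF-kappaB, at 0.33 (adjusted p = 0.136).

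Among 26 other early response genes 0 were called, while without adjustment 3 passed as higher and 4 as lower, where 13.2% of all genes passed as higher and 8.01% as lower. The median of the list was -0.069. In other settings some were called, among them 3 higher with the methods' test and q values and 2 higher with the filter on dim probe sets. With cyclic loess 1 was lower, and over probe sets of 1 gene 2 were higher and 1 lower. With array weights 7 were higher and 5 lower, where 25.8% of all probe sets were called higher and 34.1% lower. The endogenous Myc gene, itself an early response gene, had -0.48 (adjusted p = 0.119), with 10.51 to 10.88 in RUNX2/MYC and 11.00 to 11.26 in WT, and whether its probe set reads the transgene was not tested. Nfkbid, an inhibitor of NF-kappaB family proteins that is induced during thymic selection, had 0.47 (adjusted p = 0.0672), with 8.94 to 9.07 in RUNX2/MYC and 8.42 to 8.62 in WT. Both genes had groups that did not overlap, and neither passed.

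A list of genes drawn up around thymic selection held calls in both directions. Of 18 measured, 3 were called higher and 1 lower, where 2.27% of all genes were higher and 0.0953% lower. Of the 18 genes 6 had values above 0, where 40.2% of all genes did, and the median log2 fold change of the list was -0.12. Whether the called genes answered to selection was not tested. Id3, an inhibitor of E proteins that ERK and EGR1 induce below the TCR, rose by 0.97 on the log2 scale (SE 0.11, adjusted p = 0.0168 from limma).
The Helios gene Ikzf2 rose by 0.76 (adjusted p = 0.0283) and the transferrin receptor gene Tfrc by 0.73 (adjusted p = 0.0318), and Il2ra, the interleukin-2 receptor alpha chain, fell by 0.79 (adjusted p = 0.0328). For each of these 4 genes the arrays of the groups did not overlap. No gene of the list was called when any one of 4 arrays was left out, replicates 2 and 3 of RUNX2/MYC and replicates 1 and 2 of WT. Centred on the 75th percentile, 1 was higher and 1 lower, and with the methods' test after Benjamini and Hochberg 0 were. The 4 omissions each left 3 or 4 of 35556 probe sets called in the whole series, so that loss is not particular to this list.

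**Figure D4:**
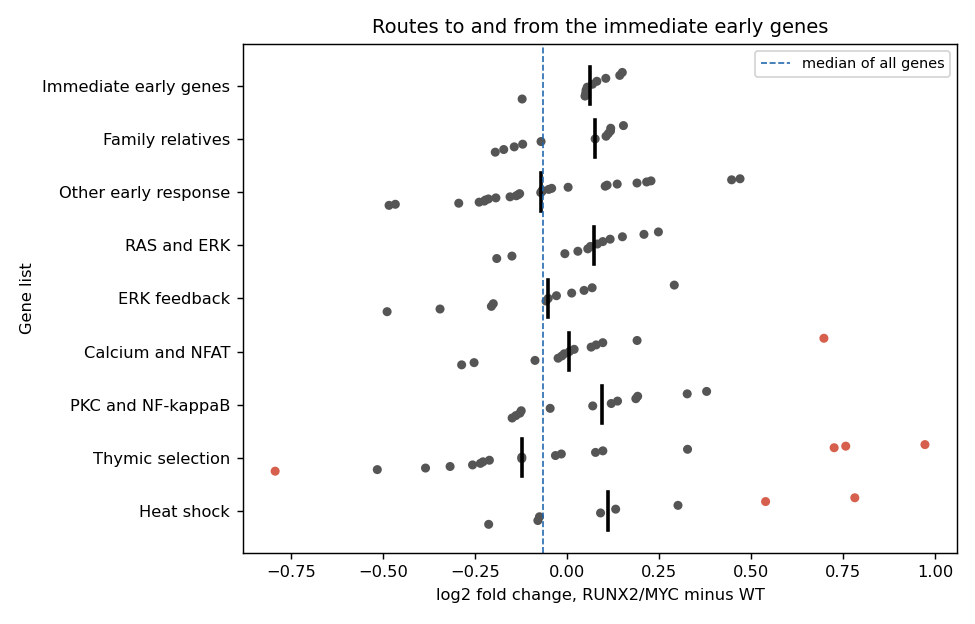
Log2 fold change, RUNX2/MYC minus WT, of each measured gene in 9 gene lists. Each point is a gene, drawn in red if limma called it, black bars are list medians (0.062 for the immediate early genes) and the dashed line is the median of all genes (-0.065).

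Heat shock genes often rise together with immediate early genes when tissue is handled. Of 8 measured, 2 were called higher, with a median log2 fold change of 0.11. Hsph1, a partner of HSP70, rose by 0.78 (SE 0.097, adjusted p = 0.02 from limma) and Hspe1, the mitochondrial co-chaperonin, by 0.54 (adjusted p = 0.0394). Of the 8 genes 5 had values above 0, each without overlap, where 14.3% of all probe sets were higher without overlap. The other 3 were below 0, with -0.074 for Hspa1a, -0.079 for Dnajb1 and -0.21 for Hspb1. The groups of Hspb1 did not overlap (adjusted p = 0.261 from limma). The mean log2 signal of the list was 10.33 to 10.35 in RUNX2/MYC and 10.13 to 10.18 in WT, without overlap, whereas that of the immediate early genes overlapped. Both calls ended on leaving out any one of the same 4 arrays, 1 was left under cyclic loess or with arrays centred on the 75th percentile, and 0 with the methods' test after Benjamini and Hochberg. With any one of those 4 arrays left out, 3 or 4 of 35556 probe sets were called in the whole series.

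The members are not restricted to T cells, and in bulk thymus fewer cells of a type and less RNA per cell cannot be told apart. Of 14 thymocyte markers 0 were called, 4 were lower and 1 higher at an unadjusted p of 0.05, and 5 were lower and 1 higher without overlap. Of all genes 8.01% were lower and 13.2% higher at that p. Of all probe sets 10.1% were lower and 14.3% higher without overlap. Among the 14 markers the largest values were -0.74 for the coreceptor gene Cd4 (adjusted p = 0.091) and -0.62 for the recombinase gene Rag1 (adjusted p = 0.0963). With the filter on dim probe sets 1 was called lower, and over probe sets of 1 gene 2 were. All 12 markers of thymic epithelium had negative values (median -0.28) with 0 called, 7 of them lower at an unadjusted p under 0.05, and their summed linear signal was 15234 to 17227 in RUNX2/MYC and 20837 to 22456 in WT. With quantile normalization 2 were called lower, and with cyclic loess, over probe sets of 1 gene or with the methods' q values 3. The largest values were those of the keratin gene Krt8, -0.53 (adjusted p = 0.0544), and of the thymic protease gene Prss16, -0.41 (adjusted p = 0.101), and Foxn1, the factor that defines thymic epithelium, stood at -0.24 (adjusted p = 0.17).
Of 11 markers of dendritic cells and macrophages 9 had negative values (median -0.18), with summed signals of 4302 to 5063 in RUNX2/MYC and 4461 to 4806 in WT, which overlapped. Fibroblast and endothelial markers had medians of -0.095 and -0.036, granulocyte and B-cell markers of -0.15 and -0.25, and none of these markers was called. Of 6 B-cell markers 5 were negative, and Blk stood at 0.42 without overlap (adjusted p = 0.0693 from limma). In other settings 1 B-cell marker was called higher, with quantile normalization, the dim filter, probe sets of 1 gene and the methods' q values. In the last 3 of these settings 1 marker of dendritic cells and macrophages was called lower. Only 3 of 7 erythroid markers were measured (median 0.64), with summed signals of 965 to 2529 in RUNX2/MYC and 678 to 916 in WT and 0 called. The highest sum was that of RUNX2/MYC replicate 1, with 1346 on RUNX2/MYC replicate 2. On RUNX2/MYC replicate 1 the mean log2 signal of these markers was 8.77, against 7.42 to 8.01 on the other arrays. The part of cell composition in the member values was not tested.

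Many genes had a profile close to the average of the members. The mean profile of the 10 members over the 6 arrays spanned 0.22 on the log2 scale, and the genes nearest to it by root mean square difference were Aar2 (0.014), Rgp1 (0.015), Banp (0.016), Chn2 (0.019) and Fgd6 (0.021), while 14.3% of 19928 genes lay within 0.1. For Cd69, the member with the widest range, the nearest were Mreg (0.059), Extl3 (0.067), Dgke (0.069), Klf7 (0.073) and Pik3r3 (0.077), and 0.0803% of genes lay within 0.1.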

How the data were processed

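Whole-thymus RNA of 3 RUNX2/MYC and 3 WT mice was hybridised to Affymetrix MoGene-1 arrays. The values deposited by the authors are log2 signals per probe set. RMA and Affymetrix Expression Console 1.4 are named in the submitters' processing notes, while Partek Genomics Suite and a prior adjustment for GC content appear in the methods. RMA pulls dim probe sets together, so small changes of dim genes are understated, and Fos and Ier2 lay below the median signal of 7.42.

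Probe sets were named through GEO's platform annotation, in which 21789 of 35556 pair with 1 symbol, 1621 with several and 12146 with none. Where a gene had several probe sets with that symbol alone, the brightest was taken. Groups were compared on all probe sets by limma 3.58.1 in R 4.3.3, without a block, and p-values were adjusted after Benjamini and Hochberg across the whole table. The code was tested on simulated data. Single values of members were also compared by an exact two-sided permutation test over samples, which with 3 arrays against 3 cannot go below 0.1. The number of arrays limits the precision. The limma p-values rest on the spread between these arrays, with the variance of each probe set drawn toward a value taken from all probe sets.

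The members, gene lists and alternatives were chosen with earlier results of these data known, and the motifs after the promoter windows were seen. Of each pathway list, every gene with an adjusted p under 0.05 is named (at most 5), otherwise the 2 with the largest absolute change, and every family relative is named. Spry1, Hspa1a, Dnajb1, Hspb1 and the cell type markers named were chosen after their values were seen. The methods' test, an alternative here, is an ANOVA with q values. Likeness is the root mean square difference of signals centred over the 6 arrays.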

Additional observations from a re-analysis of the deposited data

How the results depend on the processing

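The count of members called stayed at 0 in both directions under re-applied quantile normalization, median and 75th percentile centring, cyclic loess, a filter on dim probe sets (which removes Fos and Ier2), a restriction to probe sets of 1 gene, ANOVA with q values or Benjamini-Hochberg adjustment, the replicate block, the mean of all probe sets of a gene, and the omission of each single array (0 to 0). It was 2 higher with array weights (Nr4a3 and Jun), whose estimation stopped before it converged, and 1 higher (Nr4a3) with both RUNX2/MYC replicate 1 and WT replicate 3 left out, a choice made after seeing the data. The median log2 fold change of the members moved to -0.034 under 75th percentile centring and to 0.147 under median centring, each by the same constant as every gene. It was 0.126 with array weights and ran from 0.039 to 0.095 over the omission of each array. Without RUNX2/MYC replicate 2 or 3 or WT replicate 1 or 2, only 3 or 4 of 35556 probe sets were called. A count of 0 members was thus nearly fixed in advance there.

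Signs turned as follows. Re-applied quantile normalization gave -0.0405 for Nr4a1, -0.047 for Egr1 and -0.0073 for Egr2. Cyclic loess gave -0.10 for Nr4a1, -0.098 for Egr1, -0.029 for Egr2 and -0.0076 for Egr3. Centring on the 75th percentile, which moves all probe sets alike by -0.0966 and leaves the members where they were against other genes, gave -0.047 for Nr4a1, -0.045 for Egr1, -0.041 for Egr3, -0.027 for Fos, -0.015 for Junb and -0.044 for Ier2. Cd69 was 0.22 with array weights, 0.074 without RUNX2/MYC replicate 1 and 0.18 with both arrays left out, where Fos was -0.01. Nr4a1 kept its sign with both arrays left out, at 0.139. Over the omission of each array Nr4a1 ran from -0.044 (without RUNX2/MYC replicate 2) to 0.138, Cd69 from -0.245 to 0.074, Ier2 from -0.018 (without WT replicate 2) to 0.0885 and Fos from -0.023 (without WT replicate 3) to 0.136. For the settings other than 75th percentile centring the cause was not tested.

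Over all probe sets 596 were called higher and 45 lower. The counts were 98 lower with quantile normalization, 915 higher with median centring, 209 higher with 75th percentile centring (82.3% of calls higher, against 93.0%), 124 lower with cyclic loess (78.7%), 1247 and 145 with the filter on dim probe sets, 1236 and 149 over probe sets of 1 gene, 1213 and 247 by ANOVA with q values, and 162 higher by ANOVA with Benjamini-Hochberg adjustment. They were 9165 and 12137 with array weights, 5035 and 7192 with both arrays left out, and 3 to 872 higher and 0 to 718 lower over the omission of each array, the lowest without RUNX2/MYC replicate 2 or 3 or WT replicate 2 (3 higher each) and the highest without RUNX2/MYC replicate 1.

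The groups share replicate numbers, and the deviations of same-numbered arrays correlated at 0.50, -0.15 and 0.61 for replicates 1 to 3. With the arrays of other numbers they correlated at -0.63 to 0.37, -0.15 to 0.21 and -0.50 to -0.34. For replicates 1 and 3 the correlation of deviations was thus highest between same-numbered arrays. The deviations sum to 0 within each group, so these correlations are tied to one another. By median absolute difference of the signals, RUNX2/MYC replicate 1 was nearer to WT replicate 2 (0.147) than to WT replicate 1 (0.162). The main fit took no pairs because the methods use no block. With the replicate block 1654 were higher and 763 lower, and no member was called (smallest adjusted p 0.302, Nr4a3), while 2 other early response genes were higher and 2 lower, and 3 thymocyte and 2 thymic epithelium markers were lower.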
